A study of Gallus gallus with 6 samples.

Results

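The W chromosome of chicken was followed gene by gene in RNA-seq of cloacal skin. The members were all genes of the deposited tables that the RefSeq annotation of assembly GRCg7b places on chromosome W, chosen by their NCBI Gene ID and not by their expression. These were 36 of 18315 genes, beside 722 genes placed on chromosome Z, and 3019 IDs had no match in that annotation. The RefSeq table lists 170 genes on W, so the 36 cover 21.2% of them. The skin came from 6 Ma-Huang chickens of one age and feeding regime, 1 library per bird. The s_light group held the 3 birds chosen for low cloacal yellowness (s_light6575, s_light6971 and s_light8275, named by wing number). The s_deep group held the 3 birds chosen for high yellowness (s_deep6402, s_deep6403 and s_deep7858). No bird was treated or genetically modified, the sex of each bird is not in the labels, and the subcutaneous fat had been scraped off the skin. The paper describes the flock from which they were chosen as mostly females with some males.

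In birds the female carries a W and a Z chromosome and the male a pair of Z chromosomes. The W is small and rich in repeats, and most of its protein-coding genes are old partners of genes on the Z (gametologs) that were kept while the rest of the ancestral chromosome was lost. Many of these survivors act in basic processes of every cell, such as transcription, RNA binding, protein turnover and energy supply. The Z as a whole has no chromosome-wide dosage compensation of the mammalian kind.

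Values are the deposited FPKM, that is, fragments of a gene scaled to the length of its exons and to the size of the library, given to 2 decimals. Library totals were 471488 to 487585 FPKM in s_light and 472540 to 488777 FPKM in s_deep. The paper reports the valid reads obtained from s_light and from s_deep, but the number of reads behind a single value is not given. The counting error of genes near 0 was therefore not derived. Of the markers of skin, 8 of 8 keratinocyte genes and 6 of 6 fibroblast genes found in the files were high enough for testing, with summed FPKM between 1820 and 2802 for keratinocyte genes in s_light and between 2293 and 2744 in s_deep. Smooth muscle markers (5 of 6 found, none at 0 in all libraries) summed to between 2567 and 5224 FPKM in s_light and between 1051 and 2121 FPKM in s_deep. ACTA2 went against this sum, with a log2 difference (s_light minus s_deep) of -0.32, while the others found were higher in s_light. Skeletal muscle markers (3 of 5 found) summed to 828.65, 592.6 and 2135.49 FPKM in s_light and 73.55, 234 and 105.72 FPKM in s_deep. Nearly all of this was ACTA1, with 827.31, 590.22 and 2134.51 FPKM in s_light and 72.56, 231.92 and 103.28 FPKM in s_deep. TNNT3 did not follow it, with 1.30, 2.38 and 0.98 FPKM in s_light and 0.99, 2.08 and 2.44 FPKM in s_deep. MYH1A did not exceed 0.04 FPKM, so the sum does not describe the list as a whole. Adipose markers (5 of 5) summed to between 2199 and 2294 FPKM in s_light and between 1510 and 1820 FPKM in s_deep. Here ADIPOQ went against the sum, with a log2 difference of -0.35, while the others were higher in s_light. For such markers, fewer cells of a type and less RNA per cell cannot be told apart in a piece of tissue. The part of these cell types in the group differences given below was not tested. The 5 gonad and oviduct markers together reached no more than 1.38 FPKM in s_light and 1.61 FPKM in s_deep.

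The W genes parted the libraries in a way that the yellowness groups did not. In 25 of the 36 genes, every s_light library and s_deep7858 lay above both s_deep6402 and s_deep6403. All 25 were among the genes tested (73.5% of the 34 tested W genes), where 7.39% of all 15900 tested genes showed this order. The order was read from the W values and not set by the design, so this share is a description and not a test. Of these 25 genes, 12 were listed at 0 in both s_deep6402 and s_deep6403, and 22 did not exceed 0.23 FPKM in either. The level of 0.23 FPKM equals the s_deep6402 value of LOC100857579, itself among the 22, so that count only describes these values. Summed over all 36 genes, the FPKM were 1077.13, 1351.44 and 1105.32 in s_light6575, s_light6971 and s_light8275, against 255.01, 198.19 and 918.34 in s_deep6402, s_deep6403 and s_deep7858. Over the 25 genes alone, whose choice by this order fixes the direction, they were 847, 1130 and 886 in s_light6575, s_light6971 and s_light8275, against 3.99, 5.05 and 712 in s_deep6402, s_deep6403 and s_deep7858. Most of the W sum that was read in s_deep6402 and s_deep6403 therefore came from the 11 other genes. For the 25 genes the s_deep group was split, with s_deep7858 close to the s_light birds. The smooth muscle marker sum of s_deep7858 (1487 FPKM, of which ACTA2 was 1104.86) lay between those of s_deep6402 (1051 FPKM) and s_deep6403 (2121 FPKM). Its keratinocyte sum also lay between theirs (2484 against 2744 and 2293 FPKM). The sums of s_deep7858 lay above both for fibroblast (3961 against 2818 and 2657 FPKM) and adipose markers (1820 against 1769 and 1510 FPKM). Lymphocyte markers did so too (154 against 109 and 125 FPKM). Not every marker followed its sum. Of the adipose markers, ADIPOQ (1171.17 against 814.17 and 1038.69 FPKM) and LPL were above both. FABP4 (502.52 against 752.91 and 382.97 FPKM), PLIN1 and CIDEC lay between s_deep6402 and s_deep6403. LUM of the fibroblast markers and CD8A of the lymphocyte markers also lay between them. What divides the s_deep libraries in these W genes was not tested. These libraries were not regrouped by their W levels, and each is described under its own label.

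**Figure D1:**
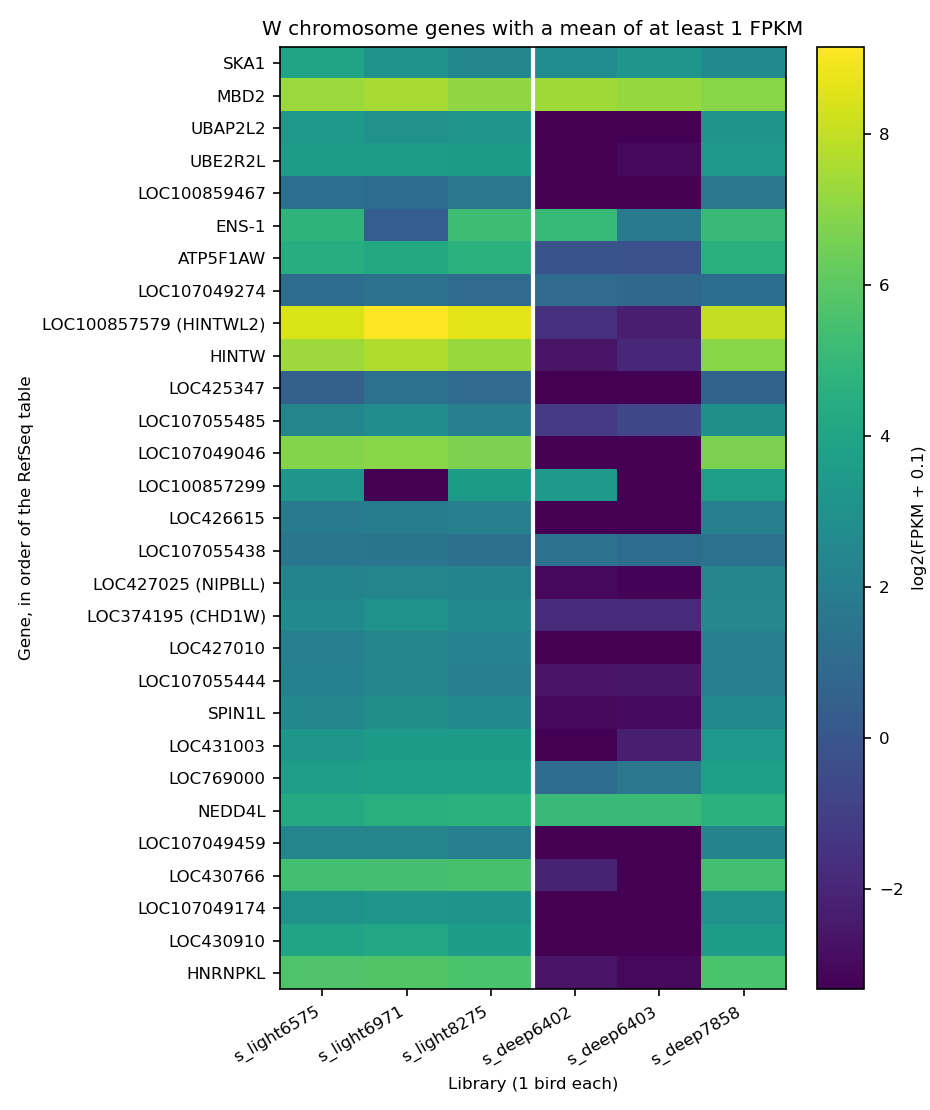
Colour shows log2(FPKM + 0.1) of the 29 W chromosome genes that averaged 1 FPKM or more (rows, in the order of the RefSeq table) in the 6 libraries (columns, s_light left of the white line and s_deep right of it). In 22 of the 29 rows the columns of s_deep6402 and s_deep6403 are darker than all others, while s_deep7858 has colours close to those of the s_light columns.

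Of the 36 genes, 34 averaged 0.1 FPKM or more across the libraries and were tested, and 29 of them averaged 1 FPKM or more. Among the genes of this order, the highest levels belonged to HINTW (Gene ID 395423) and to LOC100857579, which has the synonym HINTWL2. HINTW belongs by name to the histidine triad nucleotide-binding family and is carried in many copies on the chicken W. For HINTW, s_light6575 had 162.06 FPKM, s_light6971 had 205.78 FPKM and s_light8275 had 151.72 FPKM, against 0.06, 0.17 and 122.25 FPKM in s_deep6402, s_deep6403 and s_deep7858. For LOC100857579 the FPKM were 345.11, 566.94 and 401.93 in the s_light libraries, against 0.23, 0.11 and 260.21 in the s_deep libraries in the same order of wing numbers, which is kept below. In both genes s_deep7858 was under every s_light library, and the others of s_deep were near 0. Together the HINTW genes made up 59.9%, 68.2% and 62.5% of the summed FPKM of the 25 genes in s_light and 53.7% in s_deep7858. Near-identical copies can share reads, so the division of the signal between these genes is uncertain.

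HNRNPKL (Gene ID 426516), the W partner of the RNA-binding protein HNRNPK, had 52.49, 54.05 and 49.03 FPKM in s_light and 0.06, 0.02 and 48.76 FPKM in s_deep. The level in s_deep7858 was within 1 FPKM of the lowest s_light library. ATP5F1AW (Gene ID 431564), whose Z partner encodes the alpha subunit of the mitochondrial ATP synthase, had 21.67, 19.12 and 24.86 FPKM in s_light and 0.84, 0.79 and 23.70 FPKM in s_deep. Among the W genes with a name, ATP5F1AW kept the highest level in s_deep6402 and s_deep6403 of those that parted the libraries in this way.

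UBE2R2L (Gene ID 427134), of this same order, is the partner of a ubiquitin-conjugating enzyme. UBAP2L2 (Gene ID 407091, also UBAP2W), also of this order, is the partner of a ubiquitin-associated protein. UBE2R2L was read at 11.84, 11.25 and 10.96 FPKM in s_light and at 0, 0.02 and 10.65 FPKM in s_deep. UBAP2L2 was read at 10.35, 7.69 and 9.43 FPKM in s_light and at 0, 0 and 8.61 FPKM in s_deep. The spread of each gene over the s_light birds was small beside the gap to s_deep6402 and s_deep6403. NEDD4L, a member that encodes a ubiquitin ligase, had another order and is described below.

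Among genes of this order that act on chromatin, LOC374195 is the W copy of CHD1 by its synonym CHD1W. CHD1 encodes a chromatin remodeller, and its W and Z copies are widely used to sex birds from DNA. LOC374195 had 6.09, 8.49 and 6.14 FPKM in s_light and 0.19, 0.19 and 5.81 FPKM in s_deep. LOC427025 carries the synonym NIPBLL, and NIPBL loads cohesin onto DNA. It had 4.70, 5.11 and 4.78 FPKM in s_light and 0.02, 0.01 and 5.07 FPKM in s_deep. SPIN1L (Gene ID 374014, also SPIN1W), partner of the histone reader spindlin, had 5.35, 7.01 and 6.0 FPKM in s_light and 0.02, 0.03 and 5.95 FPKM in s_deep. In all 3 of these genes s_deep7858 had values near those of the s_light birds. MBD2, a member that binds methylated DNA, had another order and is described below.

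A further 13 genes of this pattern that averaged 1 FPKM or more have no name beyond a LOC symbol in the annotation. The strongest was LOC107049046, with 112.81, 121.38 and 102.83 FPKM in s_light, against 103.93 FPKM in s_deep7858 and a listed value of 0 in both others. LOC430766 had 41.44, 42.98 and 45.24 FPKM in s_light and 0.13, 0 and 41.73 FPKM in s_deep. LOC430910 had 15.59, 16.85 and 11.26 FPKM in s_light and 0, 0 and 11.96 FPKM in s_deep. The 3 genes were near 0 in s_deep6402 and s_deep6403, and in s_deep7858 each lay inside the s_light range. A residual signal was seen in LOC769000, with 12.16, 13.48 and 13.55 FPKM in s_light and 2.06, 3.01 and 13.03 FPKM in s_deep. LOC107055485 had 4.97, 6.78 and 4.20 FPKM in s_light and 0.32, 0.52 and 7.24 FPKM in s_deep, and another ID with no match in GRCg7b (100857334) was listed with the same FPKM in all 6 libraries. These genes, with ATP5F1AW, were the only 3 of the 25 above 0.23 FPKM in s_deep6402 or s_deep6403. The remaining 8 unnamed genes had 1.31 to 11.11 FPKM in s_light, 1.46 to 9.79 FPKM in s_deep7858 and at most 0.11 FPKM in s_deep6402 and s_deep6403. LOC431003 had 9.67, 10.99 and 11.11 FPKM in s_light and 0, 0.11 and 9.79 FPKM in s_deep. LOC107049174 had 8.00, 9.45 and 8.71 FPKM in s_light and 0, 0 and 8.10 FPKM in s_deep. LOC107049459 had 4.95, 5.05 and 4.10 FPKM in s_light and 0, 0 and 4.82 FPKM in s_deep. In these 3 genes s_deep7858 lay inside the range of the s_light birds. LOC427010 had 4.06, 4.99 and 4.53 FPKM in s_light and 0, 0 and 4.18 FPKM in s_deep. LOC107055444 had 4.35, 5.42 and 3.91 FPKM in s_light and 0.06, 0.07 and 3.99 FPKM in s_deep. LOC426615 had 3.26, 3.84 and 4.28 FPKM in s_light and 0, 0 and 4.18 FPKM in s_deep. The same held here, with s_deep6402 and s_deep6403 at or near 0. LOC100859467 had 2.22, 2.04 and 2.99 FPKM in s_light and 0, 0 and 3.07 FPKM in s_deep. LOC425347 had 1.31, 2.43 and 1.93 FPKM in s_light and 0, 0 and 1.46 FPKM in s_deep. LOC100859467 was highest in s_deep7858, while LOC425347 was near its lowest s_light value there.

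Between the s_light birds and s_deep7858 the levels of most of these genes were close. For the 22 genes of this pattern that averaged 1 FPKM or more, the highest s_light library was between 1.08 and 1.85 times the lowest (median 1.31). The level in s_deep7858 was between 0.65 and 1.46 times the s_light median (median 0.94). It lay inside the range of the 3 s_light birds for 15 of these 22 genes. The lowest ratio belonged to LOC100857579 and the highest to LOC107055485.

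The next comparison set s_light against s_deep, the contrast of the study between low and high yellowness. Each gene was tested with limma on log2(FPKM + 0.1), its p-values were adjusted by Benjamini-Hochberg over all 15900 genes tested, and fold changes on this scale understate the change of genes with low FPKM. The log2 fold change was at least 1 for 24 of the 34 tested W genes (70.6%), against 3.6% of all tested genes. An unadjusted p under 0.05 with higher levels in s_light was found for 20 of the 34 genes (58.8%), where the background was 3.49%. That number was 0 when no filter on low FPKM was used and 13 when the trend of variance with intensity was left out. The share of all genes called in those settings is not given here. A fall particular to W genes therefore cannot be told from a general one. None of the 34 passed an FDR of 0.05 together with a log2 fold change of 1 or more in either direction (limma), where 0.044% of all tested genes did, and the lowest adjusted p of a W gene was 0.673. The median log2 fold change was 3.07 over the 34 genes and -0.02 over all tested genes. The size of these fold changes depends on the pseudocount, and the median over the W genes was 1.55 with a pseudocount of 1 FPKM and 4.75 with 0.01 FPKM. Because the same 6 birds gave all 34 values, the genes are not independent replicates of the contrast.

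The largest fold changes at this pseudocount were those of LOC100857579 (log2 fold change 7.35, standard error 2.51, adjusted p = 0.673, limma), LOC107049046 (6.79, standard error 2.52, adjusted p = 0.714) and HINTW (6.62, standard error 2.32, adjusted p = 0.687). With a pseudocount of 0.01 FPKM the order changed, with 9.0 for LOC107049046 above 7.77 for LOC100857579, and with 1 FPKM HINTW (5.01) stood above LOC107049046 (4.58). By the same test the log2 difference for HNRNPKL was 5.73 with a standard error of 2.13 (adjusted p = 0.716), and that for ATP5F1AW was 3.01 with a standard error of 1.19 (adjusted p = 0.748). The standard errors of the 22 genes that averaged 1 FPKM or more and had a log2 fold change of at least 1 lay between 0.61 and 2.52. Groups without overlap, with every s_light library above every s_deep library, were found for 5 of the 34 genes (14.7%), against 5.36% of all tested genes. These were HINTW, LOC100857579, HNRNPKL, UBE2R2L and LOC374195. No tested W gene was lower without overlap, where the background was 5.48%.

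The number of calls depended on the libraries that entered the test. Without s_deep7858, 24 of the 34 W genes passed that same pair of thresholds (limma), against 0.434% of all tested genes in the same fit. This fit sets s_light against s_deep6402 and s_deep6403, the split already read from the W values. Its calls are therefore a description and give no independent support to that split. In that fit 25 had an unadjusted p under 0.05 with higher levels in s_light, against 4.15% of all tested genes. The groups then did not overlap for 25 genes higher in s_light (10.7% of all tested genes) and for NEDD4L, which was lower (13.1% of all tested genes). These 25 are the genes of the order described above, so their non-overlap here follows from that order and is no further result. Without s_light6575 the number at an unadjusted p under 0.05 was 1, and without s_light6971, s_light8275, s_deep6402 or s_deep6403 it was 0 in each case (limma), where between 2.78% and 3.23% of all tested genes were called in these 5 fits. No W gene passed the FDR in any of those 5 fits. The number higher without overlap was 12 without s_light6575 (8.46% of all tested genes) and 10 without s_light8275 (9.81%). It was 6 without s_light6971 (9.71%), 5 without s_deep6402 (9.77%) and 5 without s_deep6403 (8.53%). Non-overlap is more common in all genes when a library is omitted.

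**Figure D2:**
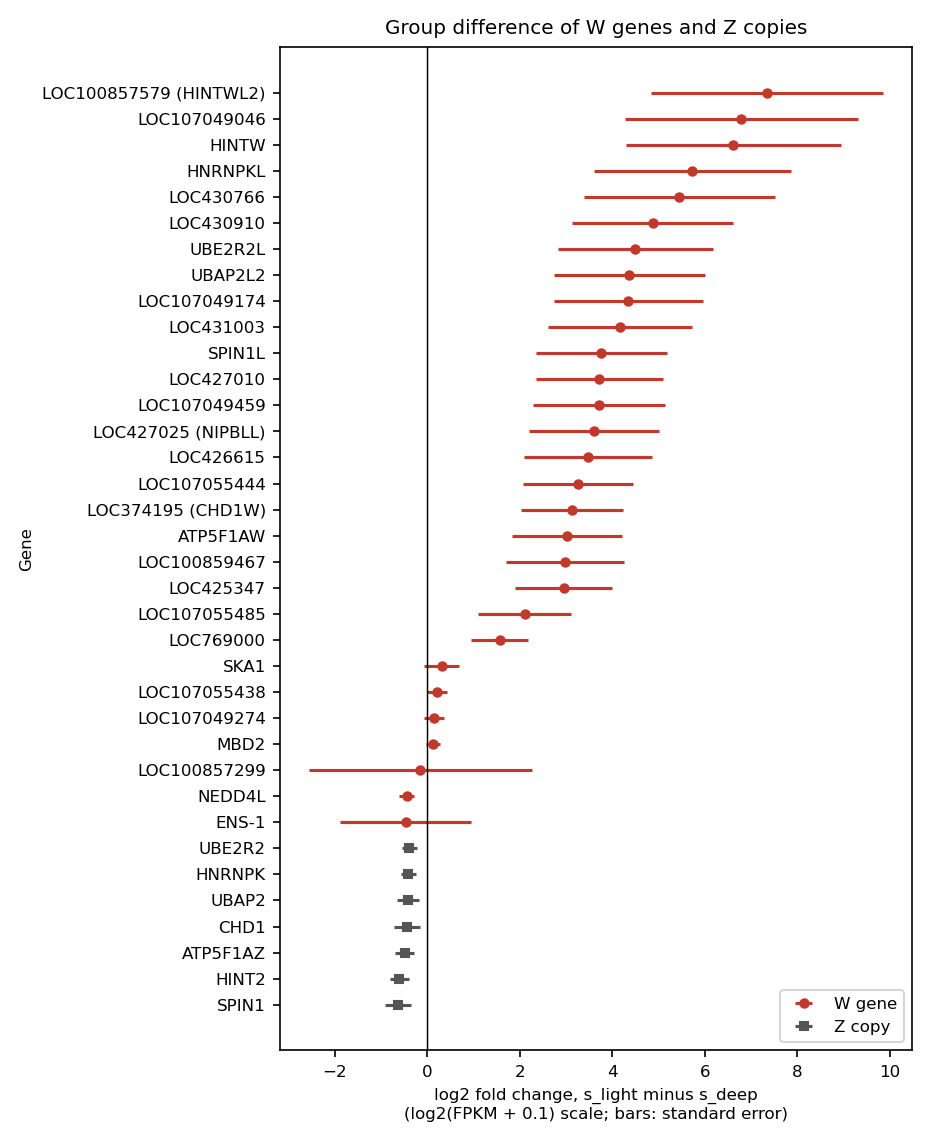
Points give the log2 fold change of s_light minus s_deep on the log2(FPKM + 0.1) scale with its standard error (bars, n = 3 libraries per group) for 29 W genes (circles) and 7 Z copies (squares). The 22 uppermost W genes lie between 1.56 and 7.35 with wide bars, and all 7 Z copies lie between -0.64 and -0.39.

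A Z copy could be named for 9 of the 36 W genes from symbols and synonyms, which gave 8 Z genes, of which 7 were tested. All 7 were read highest in s_deep6402 and s_deep6403, the libraries in which the W copies were near 0, an order shown by 9.85% of all tested genes and by 55.5% of the 634 tested Z genes. Their log2 fold changes lay between -0.64 (SPIN1) and -0.39 (UBE2R2), with a median of -0.45 beside -0.35 over the 634 tested Z genes. An unadjusted p under 0.05 was found for 3 of the 7, against 6.45% of all tested genes. HNRNPK was the only 1 of the 7 with every s_light library below every s_deep library. This held for 5.48% of all tested genes and 16.7% of the 634 tested Z genes, so it is not particular to HNRNPK. None passed an FDR of 0.05 (limma, lowest adjusted p = 0.683). Without s_deep7858 all 7 were lower in s_light at an unadjusted p under 0.05, as were 4.53% of all tested genes and 45.6% of the 634 tested Z genes in the same fit, and SPIN1 had an adjusted p of 0.0341 (limma) with a log2 fold change of -0.98. That fit again has the split of libraries that was read from the W values. Leaving out s_light6575, s_light8275, s_deep6402 or s_deep6403 gave 0 of 7, and leaving out s_light6971 gave 1, where between 1.62% and 3.27% of all tested genes were lower at this threshold.

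SPIN1 stood at 19.56, 21.67 and 19.45 FPKM in s_light and at 39.86, 40.22 and 19.47 FPKM in s_deep. Relative to its s_light mean, it was 1.97 times as high in s_deep6402 and 1.99 times in s_deep6403, but 0.96 times in s_deep7858. For HNRNPK the FPKM were 65.30, 62.44 and 62.96 in s_light and 91.96, 98.23 and 66.54 in s_deep, which was 1.45, 1.55 and 1.05 times the s_light mean. Over the 533 Z genes averaging 1 FPKM or more, the median of this ratio was 1.42 in s_deep6402, 1.46 in s_deep6403 and 1.01 in s_deep7858. Over 11225 genes of the other matched chromosomes and scaffolds it was 1.02, 0.99 and 1.01. HNRNPK thus stood near the typical Z gene and SPIN1 above it, without a test of that difference.

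CHD1 had 9.18, 9.83 and 8.93 FPKM in s_light and 14.31, 17.77 and 8.16 FPKM in s_deep. ATP5F1AZ had 59.97, 52.79 and 54.66 FPKM in s_light and 90.33, 95.50 and 56.12 FPKM in s_deep. UBAP2 had 13.23, 9.63 and 12.96 FPKM in s_light and 19.62, 17.90 and 11.30 FPKM in s_deep. In all 3 of these Z genes s_deep7858 was again near the s_light birds. UBE2R2 had 21.12, 16.75 and 18.82 FPKM in s_light and 28.44, 26.70 and 19.65 FPKM in s_deep.

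FPKM are scaled to gene length, so the copies of a pair can be set side by side and added. In s_light and s_deep7858, the W copy gave between 42.3% and 46.4% of the summed FPKM of the HNRNPK pair, between 42.1% and 44.4% of the UBAP2 pair and between 39.9% and 46.3% of the CHD1 pair. The share was lower for UBE2R2 (35.1% to 40.2%) and ATP5F1A (26.5% to 31.3%), and lowest for SPIN1 (21.5% to 24.4%). Among the 6 pairs no W copy exceeded its Z copy. In s_deep6402 and s_deep6403 the W copy gave 0.921% and 0.82% of the ATP5F1A pair and 1.31% and 1.06% of the CHD1 pair, and less than that in the other 4 pairs. Whether reads of the Z copies were counted for the W copies was not tested.

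Adding both copies gave a different order of the libraries from pair to pair. The sum for UBE2R2 was 32.96, 28.00 and 29.78 FPKM in s_light and 28.44, 26.72 and 30.30 FPKM in s_deep. For UBAP2 it was 23.58, 17.32 and 22.39 FPKM in s_light and 19.62, 17.90 and 19.91 FPKM in s_deep, and for CHD1 it was 15.27, 18.32 and 15.07 FPKM in s_light and 14.50, 17.96 and 13.97 FPKM in s_deep. In these 3 pairs s_deep6402 and s_deep6403 did not lie apart from the other 4 libraries. The HNRNPK sum was 117.79, 116.49 and 111.99 FPKM in s_light and 92.02, 98.25 and 115.30 FPKM in s_deep, so that s_deep6402 and s_deep6403 were lowest. The opposite order was seen for SPIN1, with sums of 24.91, 28.68 and 25.45 FPKM in s_light and 39.88, 40.25 and 25.42 FPKM in s_deep. The ATP5F1A sum was also highest in s_deep6402 (91.17 FPKM) and s_deep6403 (96.29 FPKM), against between 71.91 and 81.64 FPKM in s_light and 79.82 FPKM in s_deep7858.

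Between the groups, the mean sums were 115 ± 3.04 FPKM in s_light and 102 ± 12.1 FPKM in s_deep for HNRNPK and 26.3 ± 2.04 FPKM in s_light and 35.2 ± 8.46 FPKM in s_deep for SPIN1 (SD, n = 3 each). Over 10 such sums, HINTW pairs included, exact two-sided permutation p-values lay between 0.1, the smallest that 3 libraries against 3 allow, and 0.5, with Benjamini-Hochberg adjusted values between 0.25 and 0.5. None of the sums could therefore pass a threshold of 0.05 in this design.

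**Figure D3:**
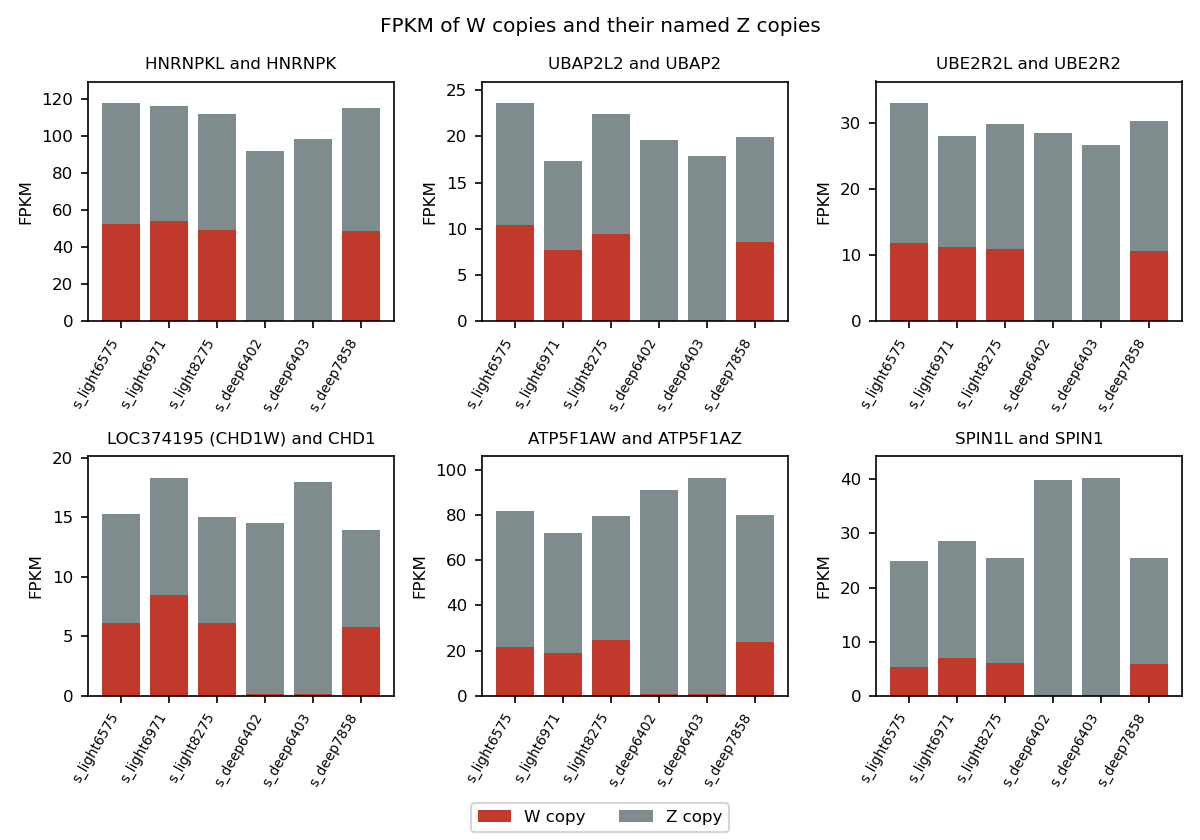
Stacked bars give FPKM of the W copy (red, bottom) and of the named Z copy (grey, top) in each library for 6 pairs, with s_light left of s_deep and each axis starting at 0. The red part is missing or barely visible in s_deep6402 and s_deep6403, where the grey part is highest, and the height of the whole bar changes little for UBE2R2 but is largest in those libraries for SPIN1.

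The partner of HINTW on Z is ambiguous in the annotation. The synonyms HINTZ and PKCIZ belong to Gene ID 395424, which now has the symbol HINT2, while HINT1 (Gene ID 100859112) also lies on Z. HINT2 had 57.10, 67.33 and 52.70 FPKM in s_light and 99.10, 110.87 and 65.11 FPKM in s_deep, and its log2 difference was -0.61 with a standard error of 0.21 (limma, adjusted p = 0.683). HINT1 had 21.81, 21.20 and 20.65 FPKM in s_light and 31.42, 31.66 and 18.51 FPKM in s_deep. Both were highest in s_deep6402 and s_deep6403. Unlike the other pairs, HINTW exceeded either Z gene in s_light and in s_deep7858, with 2.84, 3.06 and 2.88 times the FPKM of HINT2 in s_light and 1.88 times in s_deep7858. The last pair, the sialyltransferase gene ST8SIA3 and its W copy ST8SIA3L, was at most 0.05 FPKM in any library.

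In 11 of the 36 genes the order of the libraries was another. MBD2 (Gene ID 497269), which binds methylated DNA, was read at 152.58, 180.61 and 134.79 FPKM in s_light and at 163.64, 142.75 and 123.96 FPKM in s_deep. SKA1 (Gene ID 107049906), which encodes a protein of the kinetochore, had 15.32, 8.10 and 5.43 FPKM in s_light and 6.40, 9.39 and 5.87 FPKM in s_deep. Both are placed on W in GRCg7b, but they were read in s_deep6402 and s_deep6403 at levels inside the range of the other 4 libraries. NEDD4L (Gene ID 374119), a ubiquitin ligase, had 19.42, 22.62 and 25.13 FPKM in s_light and 33.32, 33.55 and 25.03 FPKM in s_deep. It was the only tested W gene lower in s_light at an unadjusted p under 0.05 (log2 fold change -0.45, standard error 0.16, adjusted p = 0.7, limma), where the background was 2.96%. At 1.49, 1.5 and 1.12 times its s_light mean in s_deep6402, s_deep6403 and s_deep7858, it had the order of the Z copies rather than that of the W genes. No gene of Z carries the name of MBD2, SKA1 or NEDD4L in the annotation, and their place in the reference that the authors aligned to is not given in the sources used here.

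A pair of members went up and down together in yet another order. ENS-1 (Gene ID 769415), a gene of retroviral origin known from chicken embryonic stem cells, had 27.47, 1.24 and 38.39 FPKM in s_light and 32.11, 3.43 and 33.48 FPKM in s_deep. LOC100857299 had 9.07, 0 and 11.02 FPKM in s_light and 10.78, 0 and 12.58 FPKM in s_deep. Their low libraries were s_light6971 and s_deep6403, and the remaining 4 were high, so that s_deep6402, in which HINTW was near 0, was among the high ones. Their log2 fold changes between the groups were -0.47 (standard error 1.42) and -0.15 (standard error 2.41), with adjusted p-values of 0.999 and 1 (limma).

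Among the low members, LOC107049274 was read at 2.05, 2.49 and 1.96 FPKM in s_light and at 1.97, 1.73 and 2.15 FPKM in s_deep, and LOC107055438 at between 2.37 and 2.86 FPKM in s_light and between 2.03 and 2.42 FPKM in s_deep. In neither gene were s_deep6402 and s_deep6403 both below the other libraries. LOC107055434 reached 0.39 FPKM in s_light and 0.54 FPKM in s_deep. SMAD7B, named after an inhibitor of TGF-beta signals, followed the main pattern at no more than 0.32 FPKM in s_light and 0.27 FPKM in s_deep, and LOC100859602 and LOC100858742 did so at no more than 1.49 and 1.03 FPKM in s_light and 1.97 and 1.15 FPKM in s_deep. LOC107053122 was highest in s_light6575 (0.70 FPKM), and LOC771474, under the minimum for testing, reached 0.16 FPKM in s_light and 0.17 FPKM in s_deep7858.

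**Figure D4:**
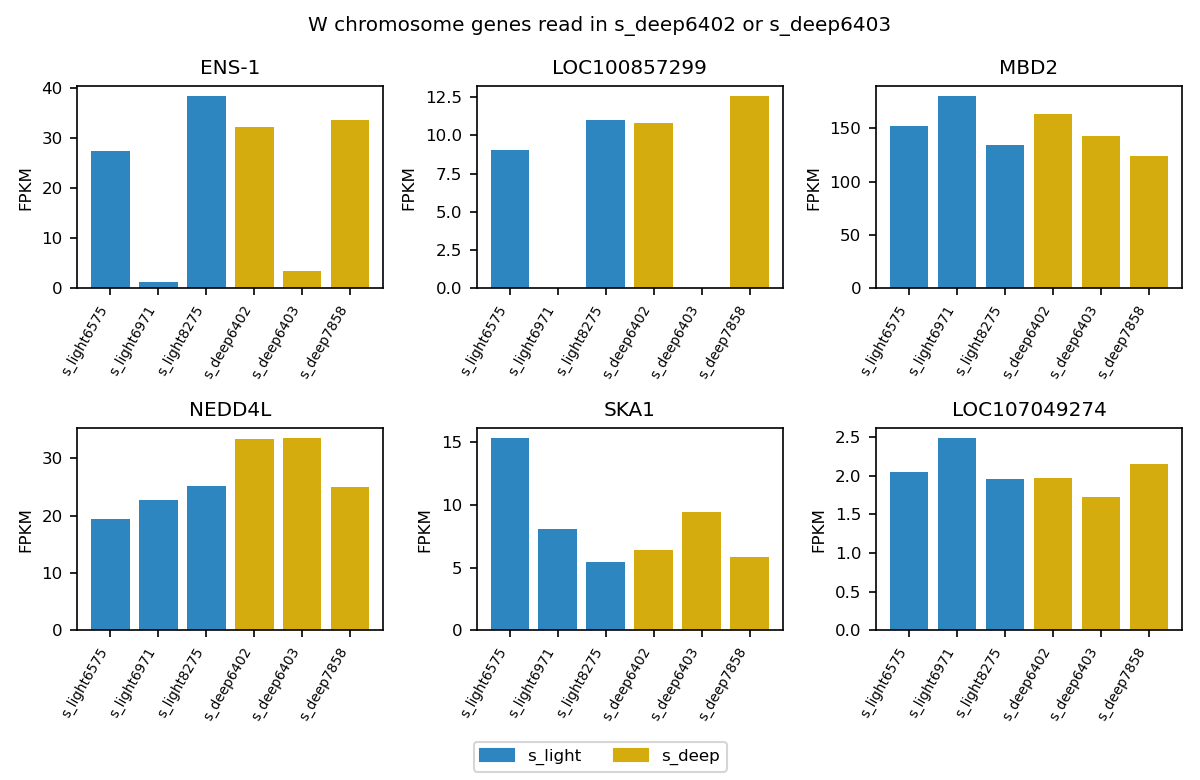
Bars give FPKM in each library (s_light blue, s_deep yellow, each axis starting at 0) for 6 W chromosome genes whose libraries are not ordered like the main W genes. ENS-1 and LOC100857299 are low in s_light6971 and s_deep6403, NEDD4L is highest in s_deep6402 and s_deep6403, and MBD2, SKA1 and LOC107049274 are read in all 6 libraries.

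Outside the annotated W, the genes most like its members were sought by the root mean square difference between centred log2(FPKM + 0.1) values and those of the median W gene over the 6 libraries. The 5 closest genes (IDs 107049482, 107049041, 107057343, 101752211 and 777191) differed by 0.45 to 0.52 log2 units, and none of them has a match in GRCg7b. ID 107049482 had 3.55, 4.41 and 3.00 FPKM in s_light and 0.06, 0 and 3.24 FPKM in s_deep. ID 101752211 had 11.53, 17.87 and 13.54 FPKM in s_light and 0.13, 0 and 13.36 FPKM in s_deep. The IDs 107049041 and 107057343 were listed with the same FPKM in all 6 libraries, as were 16 of the 13052 genes averaging 1 FPKM or more with some other ID. Of the 20 closest genes, a number chosen after the values were seen, 18 had no match in GRCg7b, whereas 86.8% of all tested IDs had one. The other 2 were LOC107049986, placed on chromosome 19, and LOC101749628, placed on chromosome 13.

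On Z, the genes most nearly opposite to the W pattern were LOC427400, LOC776018, SPINK4, TPPP2 and SNCAIP, with differences from the inverted W profile between 1.93 and 2.05 log2 units. This measure counts the size of a change as well as its direction, and the W genes changed more than these Z genes. It therefore cannot show whether the order of the libraries was mirrored. By order alone, 55.5% of the tested Z genes had s_deep6402 and s_deep6403 above all other libraries. LOC427400 had 10.16, 10.87 and 9.38 FPKM in s_light and 30.17, 32.39 and 10.17 FPKM in s_deep. SNCAIP, which encodes a partner of synuclein, had 3.95, 3.64 and 2.55 FPKM in s_light and 10.88, 7.72 and 3.59 FPKM in s_deep.

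Of 15 genes known from sex determination and gonad development, 14 were in the files and 10 were tested. None passed an FDR of 0.05 (limma), and 1 of the 10 had an unadjusted p under 0.05, against 6.45% of all tested genes. This was SOX8, with 1.57, 1.18 and 1.46 FPKM in s_light and 0.75, 0.29 and 0.63 FPKM in s_deep (log2 fold change 1.26, standard error 0.37, adjusted p = 0.584). DMRT1, the Z-linked gene needed for testis development, was read at 0.13 FPKM in s_light8275 and 0.26 FPKM in s_deep7858 and listed at 0 in the other libraries. HEMGN, another Z-linked gene of the embryonic testis, had 0, 0.15 and 0 FPKM in s_light and 0.29, 0.23 and 0.07 FPKM in s_deep. At these levels no order of the birds can be read from either gene. The oestrogen receptor ESR1 had 1.62, 3.19 and 1.83 FPKM in s_light and 2.24, 2.55 and 3.58 FPKM in s_deep, and its groups overlapped.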

How the data were processed

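RNA of cloacal skin from 6 birds (3 s_light, 3 s_deep) had been sequenced as single-end reads of 50 bases. Per the study's methods the authors cleaned the reads and aligned them to Gallus_gallus-5.0 with TopHat. The submitters' processing notes name HISAT2 (2.0.4), Bowtie2 (2.2.5), RSEM (1.1.12) and DESeq2 (1.4.5), with no role for each. The authors deposited FPKM per gene and library, and the program that computed them is not given in the sources used here. No sequences were available. The RefSeq table, which is of another assembly, gave the names, chromosome and order of the genes, and base positions were not used.

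Members, Z copies and lists were chosen with earlier results of these data known. A Z copy was a gene of Z that shares a symbol or synonym after removal of the endings W, Z, L or -like, and unnamed genes could not be paired because no proteins were compared. By this rule LOC427025 (NIPBLL) and SMAD7B also had no Z copy, although both carry names. With limma 3.58.1 (R 4.3.3; lmFit, then eBayes, trend on intensity), genes averaging 0.1 FPKM or more were fitted without covariates on log2(FPKM + 0.1), and differences are s_light minus s_deep. W genes averaging 1 FPKM or more and their Z copies were named with values per library, the other W genes by their highest values, and outside W the 5 genes with the most similar profile and the 5 Z genes with the most opposite one. HINT1 and the genes singled out from the sex determination list were chosen once values had been seen. The script was tested on simulated data. Pairs of low FPKM were examined for steps of whole reads: the fullest bin of ratios held between 8.42% and 12.0% of low genes, and no depth was derived. With 1 library per bird, the p-values measure the spread between libraries, in which bird, skin piece and library preparation cannot be told apart. Alternatives were pseudocounts of 1 and 0.01 FPKM, no filter, a minimum mean of 1 FPKM, quantile normalization, median-of-ratios scaling, no intensity trend and each library left out. Python (3.11.15), pandas (2.3.3), numpy (2.4.6), scipy (1.17.1) and matplotlib (3.10.9) served for the rest.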

Additional observations from a re-analysis of the deposited data

How the results depend on the processing

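No paired analysis was possible because the wing numbers are not shared between s_light and s_deep. Without a filter on low values the number of W genes higher at an unadjusted p under 0.05 was 0, and without the intensity trend it was 13, against 20 as reported. The number of Z copies at an unadjusted p under 0.05 was 1 without the intensity trend, against 3 as reported. The shares of all genes called in these settings are not given here, so the lower counts cannot be read as particular to W genes or Z copies. The cause was not tested. Over the 6 fits that omit a library, the number of W genes higher at an unadjusted p under 0.05 lay between 0 and 25, the number past an FDR of 0.05 between 0 and 24, the number without overlap in either direction between 5 and 26, and the number of Z copies at an unadjusted p under 0.05 between 0 and 7. The highest of each of these counts came from the fit without s_deep7858, which has the split read from the W values. Over the 6 fits, 8.46% to 10.7% of all tested genes were higher without overlap and 9.22% to 13.1% were lower. The median log2 fold change lay between 2.35 and 4.61 for W genes and between -0.74 and -0.33 for Z copies. It was 1.55 for W genes with a pseudocount of 1 and 4.75 with a pseudocount of 0.01. Fold changes against libraries listed at 0 depend on the pseudocount, which holds above all for the fit without s_deep7858.

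The log2 fold change changed sign for 3 genes when a library was left out: it lay between -0.09 and 0.65 for SKA1, between -1.55 and 1.06 for ENS-1 and between -2.44 and 2.07 for LOC100857299. In the settings that kept all libraries, the single W genes and Z copies named kept their sign and their side of an FDR of 0.05 in all 252 comparisons. The depth behind the FPKM is unknown, so no counting error can be given for the genes near 0.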
